A study of Caenorhabditis elegans with 18 samples.

Results

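The 9 genes described here are the 4 genes for RNA-dependent RNA polymerases of Caenorhabditis elegans, ego-1 (F26A3.3), rrf-1 (F26A3.8), rrf-2 (M01G12.12) and rrf-3 (F10B5.7), and 5 mutator genes, mut-2 (K04F10.6), mut-7 (ZK1098.8), mut-14 (C14C11.6), mut-15 (T01C3.8) and mut-16 (B0379.3). They were chosen by gene name and function, not by a measured value, though earlier results of these data were known. Each had a row in all 6 tables. These tables held 42400 features for mixed populations and 42048 for young mothers. The study sequenced small RNAs (sRNAs, counted by the gene they map to, after a polyphosphatase step that lets triphosphate siRNAs enter the library) and mRNA in 18 libraries from whole worms grown at 20 C, with 2 libraries in each of 9 groups.

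The meg-3 meg-4 double mutants were 4 lines with different meg-4 alleles, all carrying meg-3(ax3055). Line 1 carried meg-4(ax3052), line 2 meg-4(ax4310), line 3 meg-4(ax4311) and line 4 meg-4(ax4312). The titles name the strains JH3672, JH3673 and JH3674 for lines 2, 3 and 4, and JH3475 for the mRNA libraries of line 1. Those of the line 1 sRNA libraries give the same alleles and no strain name. Their sRNAs and those of wild-type N2 came from mixed-stage populations fed NA22 bacteria. For line 2, a group tag names the young mother stage, while the titles and source names give a mixed population, as used here. Separate sRNA libraries compared rde-11(hj37) with N2, and mRNA libraries compared line 1 with N2, in both cases young mothers fed HT115 bacteria with the empty vector L4440. No label says that the libraries of a group came from separate cultures, so every p-value measures the spread between these libraries, which may be technical. All 4 lines were compared with the same 2 N2 libraries.

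RNA-dependent RNA polymerases copy a target transcript into short antisense sRNAs. EGO-1 and RRF-1 make the abundant secondary siRNAs, EGO-1 in the germ line and RRF-1 mainly in the soma and in part in the germ line, whereas RRF-3 acts upstream with Dicer and the ERI proteins to start the siRNAs of the ERI pathway. RRF-2 is the least characterised of the family. The mutator proteins gather beside P granules in mutator foci: MUT-16 is the scaffold, MUT-2 (also RDE-3) a nucleotidyltransferase that adds UG tails to target RNAs, MUT-7 a protein with an exonuclease domain, MUT-14 a DEAD-box helicase and MUT-15 a further component that secondary siRNA production needs. MEG-3 and MEG-4 are disordered proteins that help to build the P granules of the germ line, and RDE-11 is a RING finger protein that acts with RDE-10 in RNA interference.

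Depth ran from 3820363 to 7465897 reads per sRNA library of mixed populations, 4062906 to 4926941 in young mothers, and 21994906 to 45231464 per mRNA library. In mixed populations it was 4213397 and 3820363 in N2, 4066778 and 4096142 in line 1, and 5259728 to 7465897 in lines 2, 3 and 4. The part of this depth difference in any contrast of lines 2, 3 and 4 with line 1 or N2 was not tested. The labels held where they could be checked: meg-4 sRNAs averaged at most 0.323 RPM (reads scaled to an equal total per library) in the lines and 42.2 RPM in N2, and meg-4 mRNA was at 0 in line 1 and at 44.4 units in N2. The rde-11 allele could not be checked from sRNAs, which averaged 742 RPM in the mutant and 640.2 RPM in N2. The libraries of the 4 lines and N2 differed in make-up: microRNAs took 29.3% to 38.3% of counted reads in the lines, and 22.2% and 27.1% in N2. On the RPM scale the median gene was below N2 in every line, by a log2 change of -0.34 in line 1, -0.56 in line 2, -0.59 in line 3 and -0.77 in line 4, and the part of library make-up in this shift was not tested. Changes are given below on the RPM scale and after TMM scaling, which assumes that most genes do not change and brought those medians to between -0.032 and -0.011. A gene is said to rise or fall where limma's test on log2(value + 1) gave an adjusted p below 0.05 over all features with a mean of at least 10.

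In meg-3 meg-4 lines 2, 3 and 4 the calls of 8 of the 9 genes went 1 of 2 ways, with mut-15 outside both. In line 1 only mut-2 was called, on the RPM scale. Many other features were called in the same ways, at the shares given below, so this grouping only describes the 9 genes. The sRNAs of rrf-1 and rrf-2 did not fall in any line on the RPM scale, where most genes lay below N2, and after TMM scaling both rose in lines 2, 3 and 4. The sRNAs of ego-1, rrf-3, mut-2, mut-7, mut-14 and mut-16 fell on the RPM scale in lines 2, 3 and 4, as most genes did, and none of them passed the test in a single line after TMM scaling. Those of mut-15 fell in line 4 only, on the RPM scale. On the RPM scale 1 of 9 genes fell in line 1, where 13.8% of all features did, 6 in line 2, where 52.8% did, 6 in line 3, where 54.4% did, and 7 in line 4, where 66.7% did. In lines 2 to 4 most features fell, so these counts say little about the 9 genes in particular. The number that rose was 0, 0, 1 and 0 in lines 1 to 4, beside 3.03%, 5.83%, 5.83% and 5.4% of all features.

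After TMM scaling the number that rose was 0 in line 1 and 2 in each of lines 2, 3 and 4, beside 4.91%, 14.8%, 16.8% and 16.9% of all features, and the number that fell was 0 in all 4 lines, beside 5.94%, 8%, 8.63% and 8.33%. Before adjustment, 2, 3, 3 and 2 genes had a p under 0.05 upward in lines 1 to 4, and 0, 1, 2 and 1 had one downward. The edgeR quasi-likelihood test with TMM gave the same counts, both adjusted and unadjusted, beside 4.72%, 14.6%, 16.6% and 16.7% of all features upward and 5.97%, 8.06%, 8.45% and 8.3% downward. The median log2 change of the 9 genes on the RPM scale was -0.34, -0.73, -0.77 and -0.87 in lines 1 to 4, beside the medians of all features given above. With TMM scaling it was -0.018, -0.16, -0.17 and -0.12.

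**Figure D1:**
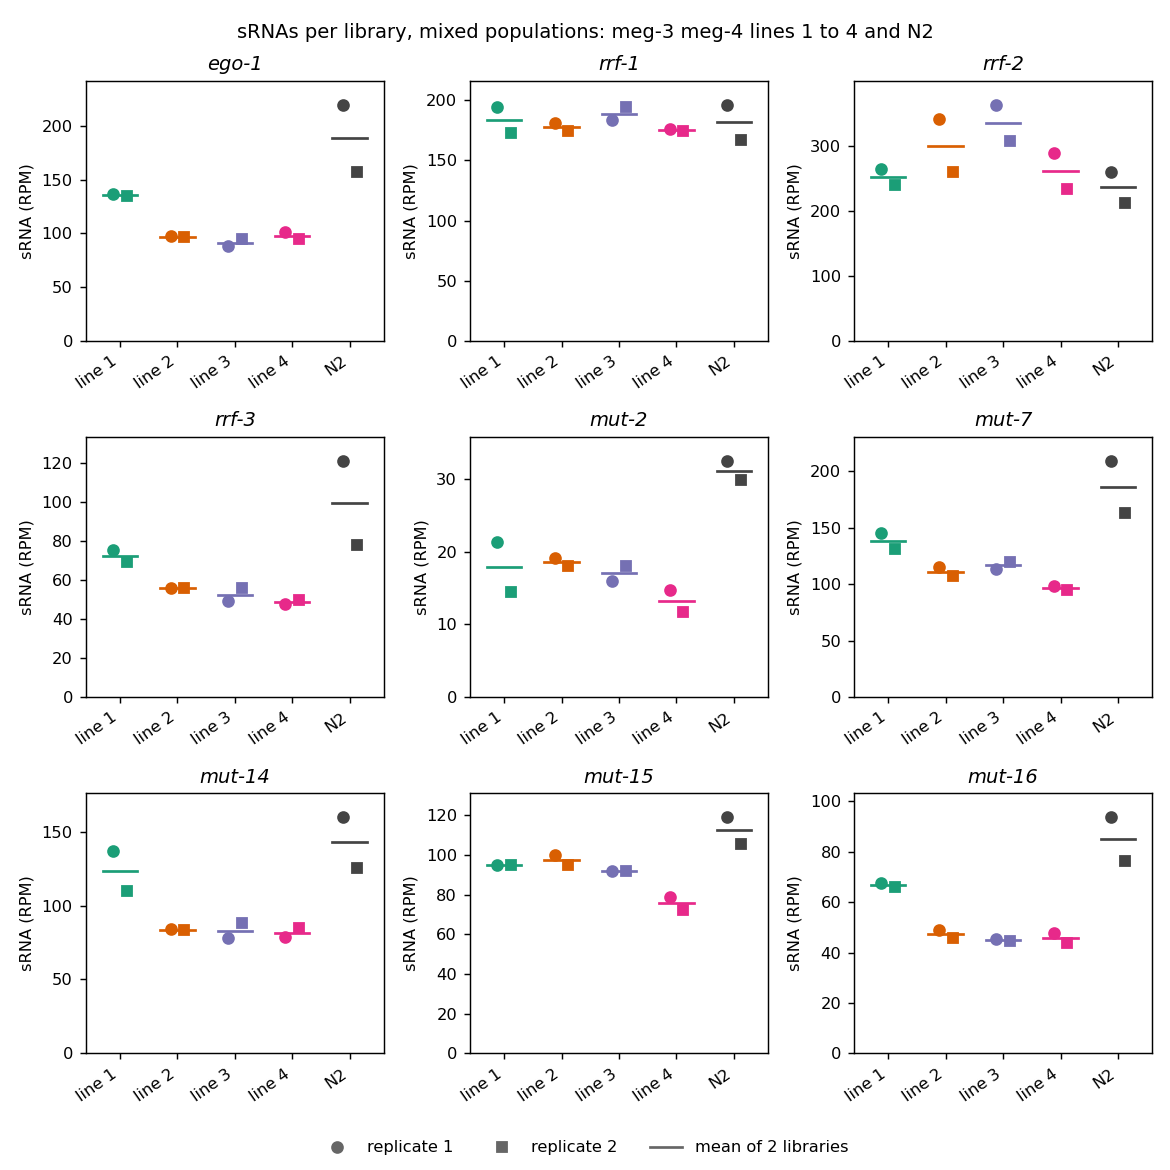
sRNAs mapping to each of the 9 genes in mixed populations, in RPM on the vertical axis, for the 2 libraries of each meg-3 meg-4 line and of N2; circles are replicate 1, squares replicate 2 and lines the group mean. For ego-1, for example, all 8 line libraries lie between 88.0 and 137 RPM, below both N2 libraries, while for rrf-1 the groups overlap.

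EGO-1 is the polymerase of germline siRNAs and is essential for fertility. The sRNAs of ego-1 stood at 137 and 135 RPM in line 1, 97.2 and 96.2 RPM in line 2, 88.0 and 94.9 RPM in line 3 and 101 and 94.8 RPM in line 4, against 219.8 and 157 RPM in N2. All 8 line libraries lay below both N2 libraries, as they did for 6 of the 9 genes and 50.2% of all features, and the N2 libraries differed from each other more than the libraries of any line did. The log2 change was -0.45 in line 1 (SE 0.23, adjusted p = 0.175), -0.93 in line 2 (SE 0.22, adjusted p = 0.000228), -1.02 in line 3 (SE 0.22, adjusted p = 0.000321) and -0.92 in line 4 (SE 0.23, adjusted p = 0.000504). After TMM scaling it was -0.13, -0.37, -0.42 and -0.16 in lines 1 to 4, with adjusted p from 0.0637 to 0.621.

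RRF-1 is closely related to EGO-1, and the genes rrf-1 and ego-1 are neighbours on the chromosome. The sRNAs of rrf-1 stood at 195 and 173 RPM in line 1, 181 and 174 RPM in line 2, 183 and 194 RPM in line 3 and 176 and 175 RPM in line 4, against 196 and 167 RPM in N2. Every line library lay within the range of the N2 libraries on the RPM scale. The log2 change lay between -0.044 and 0.061 over the 4 lines, with no call. Once TMM-scaled, it was 0.34 in line 1 (SE 0.11, adjusted p = 0.135), 0.54 in line 2 (SE 0.10, adjusted p = 0.0187), 0.66 in line 3 (SE 0.10, adjusted p = 0.00998) and 0.72 in line 4 (SE 0.11, adjusted p = 0.00920). The rise of rrf-1 in lines 2, 3 and 4 is thus a rise relative to the other genes of the same library, and not in RPM. In the authors' deposited table the adjusted p for rrf-1 was 0.137 in line 2, 0.0285 in line 3 and 0.0312 in line 4, all with a positive log2 change. Of the features with an adjusted p there, 6.37%, 7.42% and 7.56% were called higher in lines 2, 3 and 4.

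The sRNAs of rrf-2, the least characterised polymerase gene, stood at 264 and 239.7 RPM in line 1, 340.4 and 259 RPM in line 2, 363 and 307 RPM in line 3 and 289 and 233 RPM in line 4, against 260.1 and 211 RPM in N2. Of the 8 line libraries, 5 were above both N2 libraries, among them both libraries of line 3. The RPM log2 change was 0.100, 0.34, 0.51 and 0.15 in lines 1 to 4, and passed the test in line 3 (SE 0.21, adjusted p = 0.0378), though not with all features of a mean of at least 1 kept (adjusted p = 0.0638). After TMM scaling it was 0.42 in line 1 (SE 0.11, adjusted p = 0.0825), 0.91 in line 2 (SE 0.15, adjusted p = 0.0112), 1.11 in line 3 (SE 0.15, adjusted p = 0.00731) and 0.91 in line 4 (SE 0.13, adjusted p = 0.00808). Of the 9 genes, rrf-2 had the highest log2 change in each line on that scale. In the authors' deposited table its adjusted p was 0.000751, 1.13e-05 and 0.00174 in lines 2, 3 and 4, beside the shares of features given for rrf-1.

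RRF-3 supplies the double-stranded RNA of the ERI pathway. The sRNAs of rrf-3 stood at 75.5 and 69.3 RPM in line 1, 55.8 and 56.0 RPM in line 2, 49.0 and 55.9 RPM in line 3 and 47.7 and 49.6 RPM in line 4, against 121 and 78.0 RPM in N2. All 8 line libraries lay below both N2 libraries, as for ego-1. The RPM log2 change was -0.42 in line 1, without a call, and -0.79, -0.88 and -0.98 in lines 2, 3 and 4 (adjusted p = 0.00211, 0.00173 and 0.000225). The TMM-scaled change of rrf-3 lay between -0.29 and -0.10, with no call in any line. Of the polymerase genes, ego-1 and rrf-3 had no call after TMM scaling in any line, whereas rrf-1 and rrf-2 were called in lines 2, 3 and 4.

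Among the mutator genes, mut-2 fell in all 4 lines on the RPM scale. Its sRNAs stood at 21.4 and 14.4 RPM in line 1, 19.2 and 18.1 RPM in line 2, 16 and 18.1 RPM in line 3 and 14.7 and 11.7 RPM in line 4, against 32.5 and 29.8 RPM in N2. All 8 line libraries lay below both N2 libraries, as for 50.2% of all features. The log2 change was -0.79 in line 1 (SE 0.26, adjusted p = 0.0349), -0.71 in line 2 (SE 0.23, adjusted p = 0.00663), -0.84 in line 3 (SE 0.23, adjusted p = 0.00227) and -1.18 in line 4 (SE 0.24, adjusted p = 2.17e-05). TMM scaling gave -0.48, -0.16, -0.26 and -0.45, without a call. The gene bli-4, which overlaps mut-2 in the annotation, had 25.1 to 35.2 RPM on average in the lines and 50.2 RPM in N2. The gene T05C12.11, which overlaps rrf-3, had at most 0.369 RPM on average in any group of mixed populations. The strand setting of the counting is not given in the sources used here, so reads of overlapping genes cannot be told apart.

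The scaffold gene mut-16 had 67.6 and 65.9 RPM in line 1, 49.1 and 45.8 RPM in line 2, 45.2 and 44.7 RPM in line 3 and 47.7 and 43.9 RPM in line 4, against 93.7 and 76.4 RPM in N2. Each line library was below both N2 libraries, as for 50.2% of all features, and both libraries of line 1 were above those of the other lines. Its log2 change was -0.34 in line 1, without a call, and -0.82, -0.90 and -0.87 in lines 2, 3 and 4 (adjusted p = 0.00121, 0.00105 and 0.000720). With TMM scaling its change lay between -0.31 and -0.018, without a call.

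The exonuclease-domain gene mut-7 had 146 and 132 RPM in line 1, 115 and 107 RPM in line 2, 113 and 120.2 RPM in line 3 and 98.6 and 94.8 RPM in line 4, against 209 and 163 RPM in N2. It fell by 0.73, 0.66 and 0.93 on the log2 scale in lines 2, 3 and 4 (adjusted p = 0.00312, 0.0103 and 0.000415), and its change in line 1 was -0.42 (adjusted p = 0.201). The helicase gene mut-14 had 137 and 109.6 RPM in line 1, 83.9 and 83.3 RPM in line 2, 77.8 and 88.0 RPM in line 3 and 78.9 and 84.6 RPM in line 4, against 160.0 and 126 RPM in N2. It fell by 0.76, 0.77 and 0.79 in lines 2, 3 and 4 (adjusted p = 0.00251, 0.00375 and 0.00216), while in line 1 the groups overlapped. After TMM scaling mut-7 was at -0.093, -0.16, -0.062 and -0.17 and mut-14 at 0.11, -0.19, -0.17 and -0.027 in lines 1 to 4, without a call. The close paralogue smut-1 may share reads with mut-14, and ego-1 with rrf-1, and how such reads were counted is not given in the sources used here.

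The gene mut-15 had the smallest RPM change among the mutator genes in lines 2, 3 and 4. Its sRNAs stood at 94.9 and 95.2 RPM in line 1, 99.97 and 94.9 RPM in line 2, 92.0 and 91.8 RPM in line 3 and 78.8 and 72.4 RPM in line 4, against 119 and 106 RPM in N2. All 8 line libraries were below both N2 libraries, as for 50.2% of all features. The RPM log2 change was -0.24, -0.20 and -0.29 in lines 1 to 3, without a call, and -0.57 in line 4 (SE 0.23, adjusted p = 0.0238). After TMM scaling the sign turned, to 0.084, 0.37, 0.31 and 0.19, with adjusted p of 0.715, 0.0604, 0.0934 and 0.254. The direction of mut-15 thus depends on the scaling.

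The calls in single lines depended on which library was dropped, and each such fit left 1 library in a group. On the RPM scale the downward calls of lines 2 and 3 stayed without either N2 library. All or most of them were lost without a library of the line. On the RPM scale the 6 downward calls of line 2 became 0 without its replicate 1 and 0 without its replicate 2. The 6 of line 3 became 0 and 1 (ego-1), and the 7 of line 4 became 5 and 2. In line 1, 4 genes fell without N2 replicate 2 (ego-1, rrf-3, mut-2 and mut-7), and 0 did without any of the other 3 libraries. After TMM scaling rrf-1 and rrf-2 rose in lines 2, 3 and 4 without either N2 library, and neither did without either library of lines 2 or 4 or without replicate 1 of line 3. Without replicate 2 of line 3, rrf-2 alone rose.

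**Figure D2:**
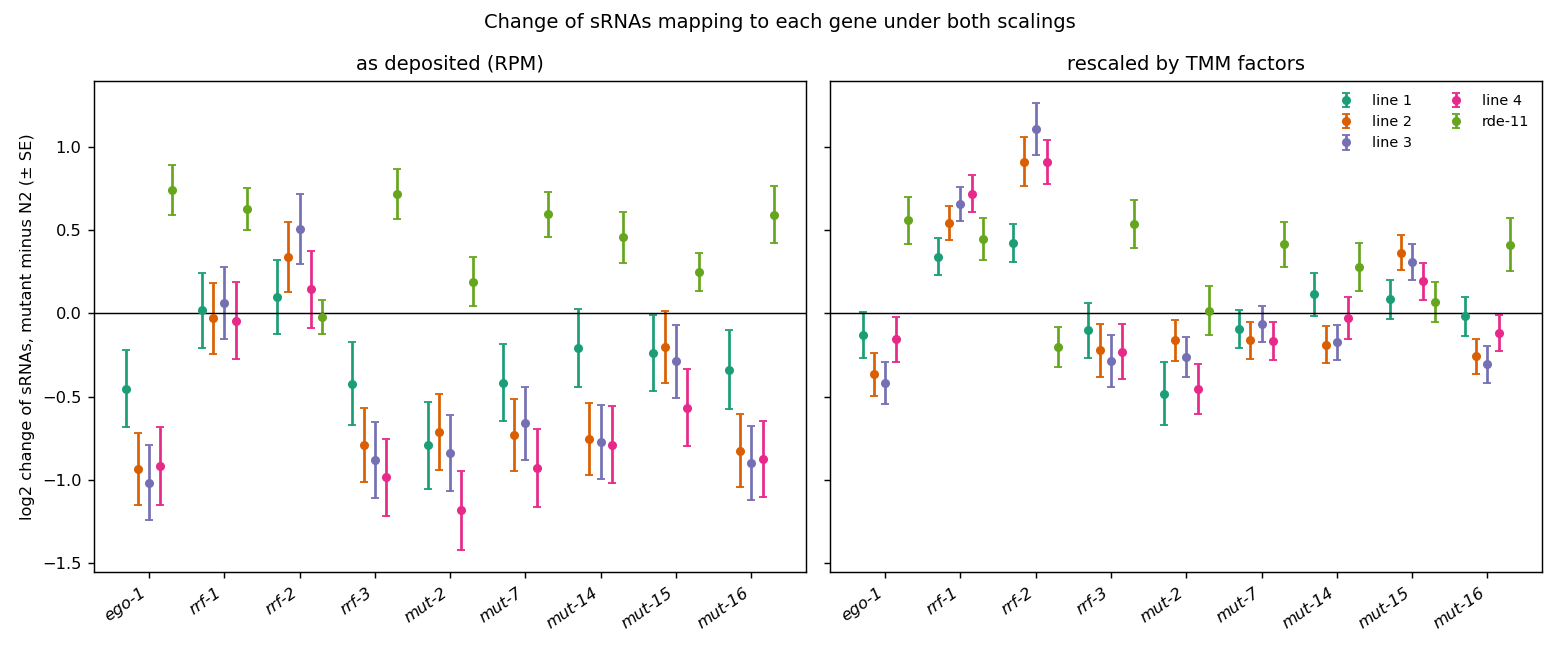
Log2 change of the sRNAs of each gene, mutant minus N2, with its standard error, in meg-3 meg-4 lines 1 to 4 (mixed populations) and rde-11 (young mothers), on the RPM scale at left and after TMM scaling at right. The rrf-2 change reaches 0.51 at left and 1.11 at right in line 3, and mut-15 lies below 0 at left and above it at right in all 4 lines.

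The average of the 4 lines, from 1 fit of all 10 mixed-population libraries, carries more libraries than any single line and shares its N2 libraries with them. On the RPM scale 7 of 9 genes fell, all but rrf-1 and rrf-2, beside 65.7% of all features, and 0 rose, beside 7.76%. The log2 change of those that fell ran from -0.88 (mut-2, SE 0.16, adjusted p = 0.000349) to -0.32 (mut-15, SE 0.11, adjusted p = 0.02), and that of all features had a median of -0.56. For rrf-1 it was 0.0017 (adjusted p = 0.991) and for rrf-2 0.27 (adjusted p = 0.0942). No gene had an unadjusted p under 0.05 upward on this scale.

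After TMM scaling the average gave calls in both directions, at shares close to those of all features. Here 2 of 9 genes rose, beside 22% of all features: rrf-1 by 0.51 (SE 0.064, adjusted p = 0.000254) and rrf-2 by 0.79 (SE 0.12, adjusted p = 0.000792). Another 3 fell, beside 20.6% of all features. They were ego-1 with -0.32 (SE 0.075, adjusted p = 0.00907), mut-2 with -0.39 (SE 0.12, adjusted p = 0.0347) and mut-16 with -0.22 (SE 0.072, adjusted p = 0.0340). The edgeR test called the same 2 higher, beside 21.5% of all features, and 4 lower, these 3 and rrf-3, beside 21.9%. Both rises held without any single library, whereas the 3 downward calls depended on single libraries. Without N2 replicate 1 all 3 were lost, with adjusted p of 0.261 for ego-1, 0.128 for mut-2 and 0.313 for mut-16. Without line 2 replicate 1 or 2, line 3 replicate 2 or line 4 replicate 2 only ego-1 fell. Without line 1 replicate 2 or line 4 replicate 1 ego-1 and mut-2 fell, without line 3 replicate 1 ego-1 and mut-16, and without N2 replicate 2 ego-1 and rrf-3. Without line 1 replicate 1 all 3 fell. N2 replicate 1 was the higher of the N2 libraries for all 9 genes on the RPM scale.

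A ratio of reads from a pair of genes within a library needs no scaling. These ratios were chosen after the values were seen and are given as a description. The ratio of rrf-1 to ego-1 sRNA reads was 1.42 and 1.28 for line 1, 1.86 and 1.81 for line 2, 2.08 and 2.05 for line 3, 1.74 and 1.84 for line 4 and 0.893 and 1.06 for N2. That of rrf-2 to ego-1 was 1.93 and 1.78 for line 1, 3.50 and 2.69 for line 2, 4.13 and 3.24 for line 3, 2.86 and 2.46 for line 4 and 1.18 and 1.35 for N2. Both ratios were above both N2 libraries in all 8 line libraries, and by the mean of 2 libraries they were highest in line 3 and lowest in line 1. The divisor ego-1 itself lay below both N2 libraries in all 8 line libraries, as did 50.2% of all features. How many other pairs of genes have such a ratio was not tested. The ratio of rrf-3 to ego-1, in contrast, was 0.552 and 0.515 for line 1, 0.574 and 0.582 for line 2, 0.557 and 0.589 for line 3, 0.472 and 0.522 for line 4 and 0.551 and 0.497 for N2, so that the lines overlapped N2. The share of rrf-2 in the summed sRNAs of the 9 genes was 23.2% to 35.3% over the line libraries, and 18.4% and 19% in the N2 libraries.

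**Figure D3:**
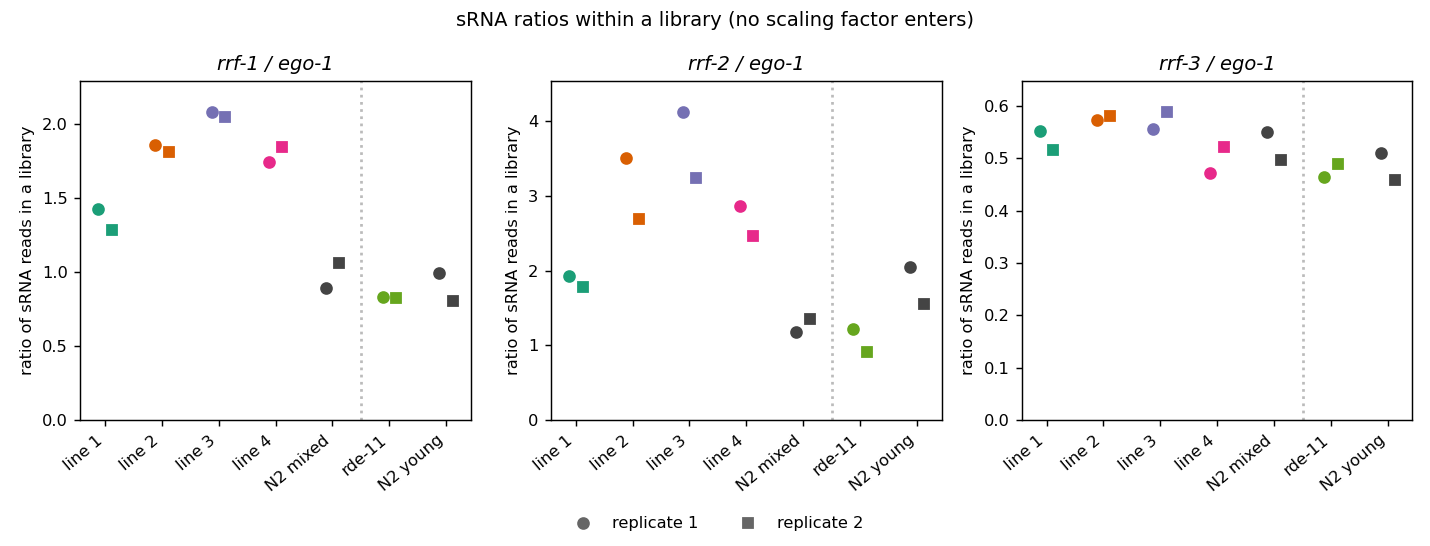
Ratio of sRNA reads of rrf-1, rrf-2 and rrf-3 to those of ego-1 within each library (vertical axis, no unit), for meg-3 meg-4 lines 1 to 4 and N2 in mixed populations, left of the dotted line, and rde-11 and N2 in young mothers, right of it. In mixed populations every line library has a higher rrf-1 and rrf-2 ratio than both N2 libraries, whose rrf-1 ratios are 0.893 and 1.06. The divisor ego-1 is below both N2 libraries in every line library, as are 50.2% of all features.

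Differences among the 4 lines were tested with a moderated F test over the line means. The N2 libraries do not enter the differences tested, but enter the estimate of the spread, the choice of features and the TMM factors. In RPM, 0 of 9 genes differed among the lines, beside 8.64% of all features, and 5 had an unadjusted p under 0.05. TMM scaling and edgeR also gave 0 calls and 5 unadjusted ones each, beside 5.44% and 4.89%. Without N2 replicate 1, and again without N2 replicate 2, 5 genes differed on the RPM scale (ego-1, rrf-3, mut-7, mut-14 and mut-16), beside 26.6% and 27.7% of all features. The highest line mean divided by the lowest ran from 1.08 for rrf-1 (adjusted p = 0.907) to 1.51 for mut-14 (adjusted p = 0.0680). Line 1 had the highest mean for 5 genes, ego-1, rrf-3, mut-7, mut-14 and mut-16. The lowest mean was in line 3 for ego-1 and mut-16 and in line 4 for rrf-1, rrf-3, mut-2, mut-7, mut-14 and mut-15. For rrf-2, line 3 was highest and line 1 lowest.

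Over the 10 mixed-population libraries, the features whose log2(RPM + 1) ran most like each gene are given with Pearson's r as a description, since the libraries share groups and the RPM scale couples all genes. For ego-1 they were smg-3 (r = 0.995) and hcp-2 (r = 0.994), for rrf-3 scc-3 (0.992) and ufd-2 (0.991), for mut-7 K07H8.10 (0.997) and pct-1 (0.995), for mut-14 drh-1 (0.994) and F55A3.3 (0.992), and for mut-16 rpl-5 (0.995) and cyk-4 (0.995). Such profiles were common: 1480 of the 6356 features tested had an r of at least 0.9 with ego-1. The nearest to mut-2 were F19F10.11 (0.989) and F28H6.4 (0.987), and those to mut-15 were xpg-1 (0.975) and rpb-3 (0.973). For rrf-1, F32A11.1 (0.947) and pnc-1 (0.946) were nearest and 10 features reached 0.9. For rrf-2 they were clec-125 (0.946) and F17C11.1 (0.911), the only 2 that did.

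Among other genes of the pathway, too, the calls depended on the scale. A list of 11 genes, called the partners here, held partners of the polymerases and linked genes such as rde-4 and csr-1. Of these, 1 of 11 tested fell in line 1, 6 of 11 in line 2, 6 of 11 in line 3 and 9 of 10 in line 4 on the RPM scale, and 0 rose. The share of all features that fell was 13.8%, 52.8%, 54.4% and 66.7%, and the share that rose was 3.03%, 5.83%, 5.83% and 5.4%. Their median log2 change was -0.26, -0.54, -0.62 and -0.89, beside the medians of all features given above. The gene csr-1, for the Argonaute loaded with EGO-1 products, fell by 1.03, 1.01 and 1.01 in lines 2, 3 and 4. In line 4 eri-9 (-1.25) and ekl-1 (-1.05) fell further. After TMM scaling csr-1 fell in lines 2 and 3 (-0.46 and -0.41) and eri-9 in line 4 (-0.51). On that scale eri-3, for a partner of RRF-3 and Dicer, rose in lines 2, 3 and 4 (0.48, 0.60 and 0.76).

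Of 15 factors of mutator foci and secondary siRNAs, 14 were found by name and tested. On the RPM scale 1, 8, 7 and 11 fell in lines 1 to 4, beside the shares of all features given for the partners. Only rde-11 rose, in each line, with a log2 change of 3.28, 2.06, 1.24 and 2.30. After TMM scaling hrde-1, for a nuclear Argonaute, also rose in lines 3 and 4 (0.47 and 0.53) and nyn-2, for a mutator focus protein, in line 3 (0.67), and henn-1, for the methyltransferase of sRNA ends, fell in line 4 (-0.52). The log2 change of rde-11 on that scale was 3.60, 2.63, 1.84 and 3.07 in lines 1 to 4.

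On the RPM scale the sRNAs of most marker genes of germline cells fell in lines 2, 3 and 4. So did those of ego-1, rrf-3 and most mutator genes. Of all features 52.8%, 54.4% and 66.7% fell in these lines, and 13.8% in line 1. The share that fell after TMM scaling was 5.94%, 8%, 8.63% and 8.33% in lines 1 to 4. Of 6 germ line markers 0, 4, 5 and 5 fell in lines 1 to 4 on the RPM scale, and 0, 2, 1 and 0 after TMM scaling; their summed sRNAs ran from 297 to 458 RPM in the lines and from 491 to 562 RPM in N2. Of 6 oocyte markers 1, 5, 5 and 6 fell, and 0, 1, 1 and 0 after TMM scaling, with sums of 360.5 to 579 RPM in the lines and 565 to 835 RPM in N2. None of these markers was at 0 in N2. These values count sRNAs that map to the marker genes, not their mRNA, and need not follow the number of cells of a type. In whole worms, fewer cells of a type and less RNA per cell cannot be told apart either. The part of the germ line in the sRNA changes was not tested. Of the markers of body wall muscle, 2 of 6 could be tested and both fell in each line, on the RPM scale only, with sums of 26.4 to 42.7 RPM in the lines and 66.7 to 73.8 RPM in N2. Sperm, embryo and hypodermis markers had too few sRNAs to be tested, with sums of at most 17.6, 10 and 2.22 RPM in the lines and 21.7, 12 and 2.09 RPM in N2, where the hypodermis markers rol-6 and col-12 were at 0. Of 6 intestine markers 2 were tested in line 4, vit-2 and vit-5, and both rose there on the RPM scale only; the summed markers of the line 4 libraries were 145 and 40.5 RPM, so that 1 of them lay below both N2 libraries. Over all lines the sums were 37.9 to 145 RPM in the lines and 47.1 to 48.9 RPM in N2. Of 6 neuron markers rab-3 rose in lines 2 and 3 on both scales, with sums of 25.5 to 36.1 RPM in the lines and 28.0 to 37.4 RPM in N2.

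In rde-11 young mothers the sRNAs of 5 of 9 genes rose (ego-1, rrf-1, rrf-3, mut-7 and mut-16), beside 18.3% of all features, and 0 fell, beside 8.56%. No gene had an unadjusted p under 0.05 downward with limma or edgeR. Those of ego-1 stood at 256 and 307 RPM in rde-11 and 147 and 191 RPM in N2, a log2 change of 0.74 (SE 0.15, adjusted p = 0.00897). Those of rrf-1 stood at 212 and 253 RPM in rde-11 and 145 and 154 RPM in N2, a log2 change of 0.63 (SE 0.12, adjusted p = 0.00792). For rrf-3 the values were 119 and 150.2 RPM in rde-11 and 74.7 and 87.6 RPM in N2, with a log2 change of 0.72 (SE 0.15, adjusted p = 0.0102). For each of these 3 polymerase genes both rde-11 libraries were above both N2 libraries, as they were for 8 of the 9 genes and 48.3% of all features. By contrast rrf-2 stood at 310.1 and 278 RPM in rde-11 and 299.7 and 296 RPM in N2, with overlapping groups and a log2 change of -0.021 (SE 0.10, adjusted p = 0.908).

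Among the mutator genes, mut-7 had 172 and 202 RPM in rde-11 and 113 and 134 RPM in N2, a log2 change of 0.60 (SE 0.14, adjusted p = 0.0142). The scaffold gene mut-16 had 100.4 and 124 RPM in rde-11 and 63.4 and 85.5 RPM in N2, a log2 change of 0.59 (SE 0.17, adjusted p = 0.0343). The other 3 did not pass the test, with 158 and 189 RPM for mut-14 in rde-11 and 111 and 143 RPM in N2 (log2 change 0.46, adjusted p = 0.0547). The values of mut-15 were 152 and 162 RPM in rde-11 and 131 and 132 RPM in N2 (0.25, adjusted p = 0.132). Those of mut-2 were 30.5 and 32.3 RPM in rde-11 and 26.3 and 28.4 RPM in N2 (0.19, adjusted p = 0.364). In all 5 mutator genes both rde-11 libraries lay above both N2 libraries, which held for the 48.3% of all features given above. After TMM scaling the log2 change was 0.41 for mut-16 (adjusted p = 0.0856), 0.28 for mut-14, 0.070 for mut-15, 0.017 for mut-2 and -0.20 for rrf-2, without a call.

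After TMM scaling 4 of 9 genes rose in rde-11, beside 8.87% of all features. These were ego-1 (0.56, adjusted p = 0.0148), rrf-3 (0.54, adjusted p = 0.0196), rrf-1 (0.45, adjusted p = 0.0242) and mut-7 (0.42, adjusted p = 0.0437), and 0 fell, beside 12.8%. The edgeR test with TMM also called 4 higher and 0 lower, beside 9.19% and 13% of all features. In the authors' deposited table ego-1, rrf-1, rrf-3 and mut-7 were higher with an adjusted p below 0.05, beside 4.66% of the features with an adjusted p there. None of the 9 genes was lower, beside 5.2%. The median log2 change of the 9 genes was 0.59 on the RPM scale, beside 0.16 for all features, and 0.41 after TMM scaling, beside -0.011. Of the 5 calls on the RPM scale, 0 were made without N2 replicate 1 and 1 without rde-11 replicate 2 (ego-1), while the number of calls was 6 without each of the other libraries. After TMM scaling the number was 0 without N2 replicate 1, 3 without N2 replicate 2, 5 without rde-11 replicate 1 and 0 without rde-11 replicate 2.

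Within the rde-11 libraries the ratio of rrf-1 to ego-1 reads was 0.830 and 0.826, against 0.992 and 0.807 in N2, so the groups overlapped. That of rrf-2 to ego-1 was 1.21 and 0.907 in rde-11 and 2.04 and 1.55 in N2, lower in both mutant libraries. The divisor ego-1 was above both N2 libraries in both mutant libraries, as were 48.3% of all features. Of the pathway genes, 4 of 11 on the partner list rose on the RPM scale, csr-1 (0.82), elli-1 (0.77), dcr-1 for Dicer (0.71) and drh-3 for a Dicer-related helicase (0.49), and 0 fell. Both csr-1 and dcr-1 also rose after TMM scaling. Of all features 18.3% rose on the RPM scale and 8.87% after TMM scaling. Of 14 mutator focus and siRNA factors 4 rose, rsd-6 (0.81), rde-2 (0.71), rsd-2 (0.42) and znfx-1 (0.35), of which rsd-6 and rde-2 rose after TMM scaling. The median log2 change was 0.29 for the partners and 0.20 for the factors. Beside them, 1 of 6 germ line markers (htp-3) and 3 of 6 oocyte markers (rme-2, cbd-1 and egg-1) rose in sRNAs on the RPM scale and 0 after TMM scaling, with sums of 590.5 to 677 RPM in rde-11 and 451 to 536 RPM in N2 for the germ line and 633 to 795 RPM in rde-11 and 465 to 594 RPM in N2 for oocytes. The embryo marker elt-7, for an intestinal transcription factor, rose to 163 RPM in rde-11, against 2.51 RPM in N2, and the intestine marker vit-2 fell to 12.1 RPM in rde-11, against 18.6 RPM in N2, both also after TMM scaling. No sperm, muscle or neuron marker passed on the RPM scale, and the muscle marker lev-11 fell after TMM scaling (-0.70). These too are sRNAs that map to the marker genes, not their mRNA, and their part in the result was not tested.

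**Figure D4:**
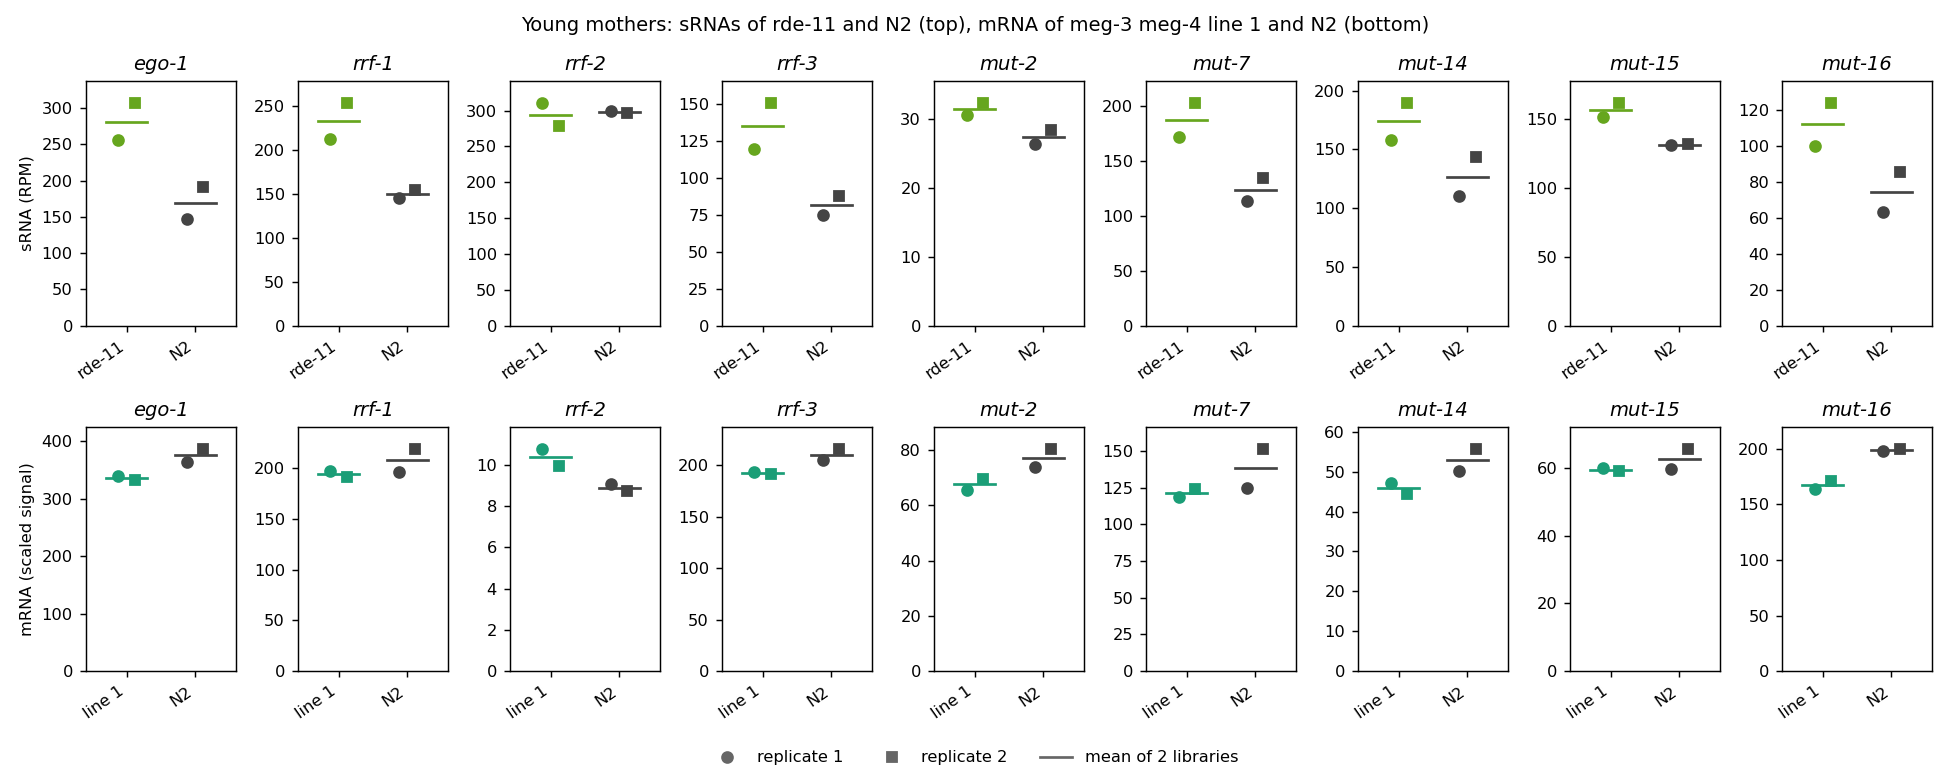
Values per library in young mothers: sRNAs in RPM for rde-11 and N2 in the top row and mRNA in scaled units for meg-3 meg-4 line 1 and N2 in the bottom row, with 1 column per gene, circles for replicate 1, squares for replicate 2 and lines for the group mean. In the top row both rde-11 libraries lie above both N2 libraries for every gene but rrf-2, as for 48.3% of all features, and in the bottom row mut-16 lies at 164 and 171 in line 1 and at 198 and 199.8 in N2.

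In line 1 young mothers the mRNAs of the 8 genes with enough mRNA to be tested had log2 changes between -0.24 and -0.073. Of these 8 genes, only mut-16 fell, beside 10.3% of all features, and 0 rose, beside 4.18%. Its mRNA stood at 164 and 171 scaled units in line 1 and 198 and 199.8 in N2, a log2 change of -0.24 (SE 0.057, adjusted p = 0.0386). TMM scaling brought it to -0.14 (SE 0.049, adjusted p = 0.114), and 0 of 8 genes fell or rose, beside 1.84% and 6.95% of all features with limma and 1.81% and 6.95% with edgeR. Without adjustment 4 genes fell on the deposited scale and 1 after TMM scaling with either tool, and 0 rose. In the authors' deposited table mut-16 had a log2 change of -0.24 with an adjusted p of 0.0213, where 9.48% of the features with an adjusted p were called lower. The call was lost without N2 replicate 1 (adjusted p = 0.0778), N2 replicate 2 (0.159) or line 1 replicate 1 (0.110), and with features kept from a mean of 1 (0.0516).

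Among the polymerase genes, ego-1 mRNA stood at 339.7 and 332 scaled units in line 1 and 364 and 387 in N2 (log2 change -0.16, SE 0.061, adjusted p = 0.0903). For rrf-1 the values were 197 and 192 in line 1 and 196 and 219 in N2 (-0.093, adjusted p = 0.303), and for rrf-3 194 and 192 in line 1 and 205 and 216 in N2 (-0.13, adjusted p = 0.133). Both line 1 libraries were below both N2 libraries for ego-1 and rrf-3, and the groups overlapped for rrf-1. The mRNA of rrf-2 was low, at 10.8 and 9.97 in line 1 and 9.06 and 8.74 in N2, and its mean over the 4 libraries fell short of the minimum of 10; kept at a minimum of 1, its log2 change was 0.20 (adjusted p = 0.201).

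Among the other mutator genes, mut-2 mRNA stood at 65.6 and 69.6 in line 1 and 73.9 and 80.5 in N2 (-0.19, adjusted p = 0.0871), and mut-14 mRNA at 47.2 and 44.5 in line 1 and 50.1 and 55.7 in N2 (-0.20, adjusted p = 0.0916). For mut-7 it was 118 and 124 in line 1 and 125 and 151 in N2 (-0.18, adjusted p = 0.159), and for mut-15 60.0 and 59.1 in line 1 and 59.9 and 65.7 in N2 (-0.073, adjusted p = 0.420). The groups overlapped for mut-15 and not for the others: line 1 lay below both N2 libraries for 6 of the 8 genes, beside 53.8% of all features, and above both for 0, beside 20.1%. After TMM scaling the log2 changes of the 8 genes lay between -0.14 (mut-16) and 0.028 (mut-15). The median log2 change of the 8 genes was -0.17 on the deposited scale, beside -0.11 for all features, and -0.067 after TMM scaling, beside -0.0087.

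Of the pathway genes, 2 of 11 on the partner list fell in mRNA, rde-4, for the double-stranded RNA binding partner of Dicer (-0.41), and elli-1 (-0.38), on both scales. Of all features 10.3% fell on the deposited scale and 1.84% after TMM scaling. Of 14 mutator focus and siRNA factors 4 fell, rde-11 (-1.66), hrde-1 (-0.36), simr-1 (-0.32) and rde-8 (-0.26), of which rde-11 fell after TMM scaling, and 0 rose. The median log2 change was -0.18 for the partners and -0.19 for the factors. Among marker mRNAs on the deposited scale, 2 of 6 germ line markers fell (gld-1 and nos-3), with sums of 873 to 909 in line 1 and 1041 to 1067 in N2, and 4 of 6 oocyte markers fell (oma-1, oma-2, puf-5 and egg-1), with sums of 5189 to 5233 in line 1 and 6199 to 6278 in N2. After TMM scaling 1 of these fell, puf-5. Of 3 sperm markers tested gsp-3 rose, and of 4 neuron markers tested egl-3 rose, on both scales. No marker of intestine, body wall muscle or hypodermis passed on the deposited scale, while the intestine markers ges-1 and cpr-6 and the muscle marker myo-3 rose after TMM scaling. Intestine sums were 7949 to 9805 in line 1 and 6939 to 6998 in N2, and muscle sums 5324 to 6618 in line 1 and 4951 to 5056 in N2. Embryo markers were below the minimum, with sums of 13.0 to 13.4 in line 1 and 15.6 to 16.5 in N2. Their part in the mut-16 change was not tested.

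In N2 young mothers the sRNAs and mRNA of each gene can be set side by side, from separate libraries. The ratio of sRNA RPM to mRNA scaled units was 33.5 for rrf-2, 2.40 for mut-14 and 2.10 for mut-15. For mut-7 it was 0.893 and for rrf-1 0.722, and it lay between 0.355 and 0.450 for mut-2, mut-16, rrf-3 and ego-1. The median over the 12583 features with a mean mRNA of at least 1 was 0.318, which all 9 genes exceeded, 4 of them by little: mut-2, mut-16, rrf-3 and ego-1 were above 52.9%, 54.4%, 55.1% and 58.9% of these features. With 1 added to both values first, mut-2, mut-16 and rrf-3 were below the middle, above 45.5%, 47.1% and 48.1% of them. The plain ratio of rrf-2 was above that of 97.5% of these features, that of mut-14 above 86.8% and that of mut-15 above 85.7%. The high ratio of rrf-2 combines 299.7 and 296 RPM of sRNAs with 9.06 and 8.74 units of mRNA. The ratio is a description of the 4 N2 libraries and was not tested.

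**Figure D5:**
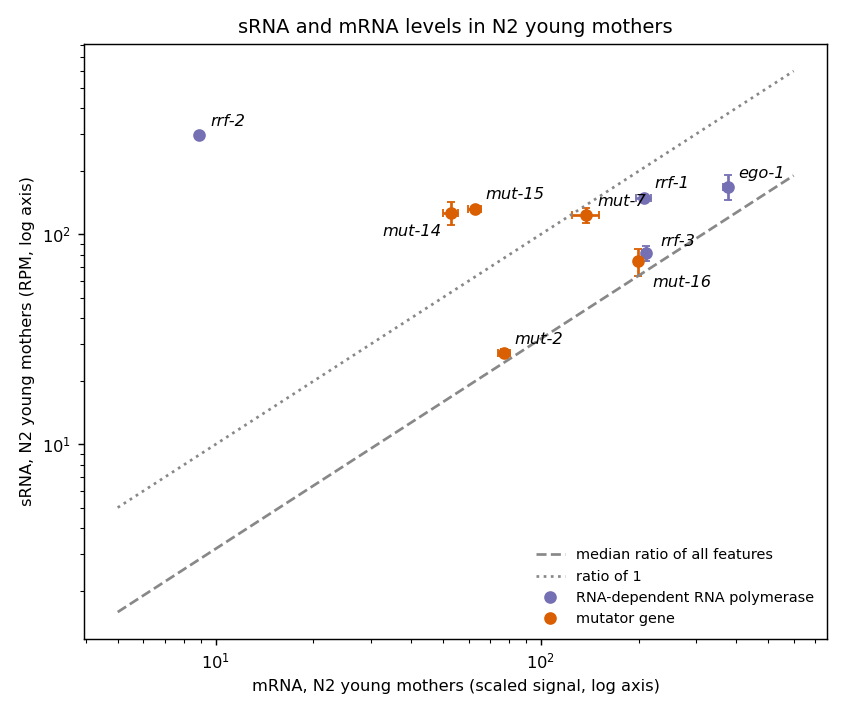
sRNAs (RPM, log axis) against mRNA (scaled units, log axis) of the 9 genes in N2 young mothers; points are means of 2 libraries and bars span them, the dashed line is the median ratio of all features and the dotted line a ratio of 1. The gene rrf-2 lies far above the other genes, with a ratio of 33.5.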

How the data were processed

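RPM per gene, deposited by the authors, fill the 5 sRNA tables. In the mRNA table the authors deposited a signal per gene, scaled by library size. The same tables carry the authors' deposited log2 fold changes and adjusted p-values. The genome build was ce10 and the tools were HTSeq, cutadapt, DESeq2, HISAT2 and Bowtie2, per the submitters' processing notes. The handling of reads with several matches and the strand setting are not given in the sources used here. Values were whole multiples of 1 read for 100% of values in every library, within a tolerance of 0.02 reads, which gave the depths.

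The members and gene lists were chosen with earlier results of these data known. Each mutant was compared with its own N2 libraries by limma 3.58.1 (R 4.3.3) on log2(value + 1), with an intensity trend and no covariates, over all features with a mean of at least 10. P-values were adjusted over all features by Benjamini-Hochberg, with a threshold of 0.05. A count test was planned as the main test for raw counts only, and the deposited values are not raw counts. TMM scaling and the count test were run on the recovered reads with edgeR 4.0.16, and the count test also with DESeq2 1.42.0 size factors. The edgeR test with TMM called 0, 2, 2 and 2 of the 9 genes higher in lines 1 to 4, 4 in rde-11 and 0 in mRNA, and 0 lower in each. A joint fit of the 10 mixed-population libraries gave the average of the 4 lines and their differences. Scripts were tested on simulated data. The text names all 9 members in every comparison, some of the pathway genes from fixed lists that passed the test, the 2 features most correlated with each member, and overlapping genes. Alternatives were 2 pseudocounts, a lower minimum, the scalings, a replicate block and leaving out each library or line; leaving out a library together with TMM scaling was added after seeing the data.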

Additional observations from a re-analysis of the deposited data

How the results depend on the processing

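The RPM scale decides most downward calls. With TMM scaling, edgeR with TMM and edgeR with DESeq2 size factors, the genes that fell numbered 0 in line 1 (1 on the RPM scale), 0 in line 2 (6), 0 in line 3 (6), 0 in line 4 (7) and 0 in the mRNA of line 1 (1). Under the same 3 settings those that rose numbered 2 in line 2 (0), 2 in line 3 (1) and 2 in line 4 (0). For the average of the 4 lines, 3, 4 and 2 fell (7 on the RPM scale) and 2, 2 and 3 rose (0). With features kept from a mean of 1, 0 fell in line 1, 0 rose in line 3 and 0 fell in mRNA. Pseudocounts of 0.5 and 5 left every count of rises and falls within 1.5 times its value.

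Some signs turned, among them 2 called falls, mut-15 in line 4 and on average. Under TMM scaling, edgeR with TMM and edgeR with DESeq2 size factors, mut-15 was 0.084, 0.086 and 0.12 (line 1), 0.37, 0.37 and 0.37 (line 2), 0.31, 0.32 and 0.31 (line 3), 0.19, 0.20 and 0.21 (line 4), 0.028, 0.028 and 0.029 (mRNA) and 0.19, 0.19 and 0.24 (average). Likewise mut-14 was 0.11, 0.12 and 0.15 (line 1), and rrf-1 was 0.54, 0.55 and 0.54 (line 2), 0.72, 0.72 and 0.74 (line 4) and 0.0099, 0.0086 and 0.0095 (mRNA). In line 1 mut-16 was 0.013 with DESeq2 size factors. A change of scaling shifts every gene of a library alike, which moved these values. The RPM average of rrf-1, near 0 with all lines, was -0.0038 without line 1 and -0.018 without line 3.

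With 1 library left out, on the RPM or the TMM scale, the lone library of a group is assumed to vary like the others. The number that fell was 0 to 4 in line 1, 0 to 6 in line 2, 0 to 6 in line 3, 0 to 7 in line 4, 0 to 1 in mRNA and 0 to 7 on average. The number that rose was 0 in line 1, 0 to 3 in line 2, 0 to 3 in line 3, 0 to 2 in line 4, 0 to 6 in rde-11 and 0 to 2 on average, and 0 to 5 differed among the lines. Log2 changes that crossed 0 then ranged, in line 1, over -0.099 to 0.37 (rrf-1), -0.049 to 0.45 (rrf-2), -0.73 to 0.096 (rrf-3), -0.38 to 0.22 (mut-14), -0.32 to 0.15 (mut-15) and -0.48 to 0.029 (mut-16). In line 2 they ranged over -0.14 to 0.55 (rrf-1) and -0.29 to 0.38 (mut-15), in line 3 over -0.056 to 0.69 (rrf-1) and -0.37 to 0.38 (mut-15), and in line 4 over -0.16 to 0.76 (rrf-1), -0.0078 to 1.04 (rrf-2), -0.96 to 0.066 (mut-14) and -0.65 to 0.23 (mut-15). In rde-11 they ranged over -0.28 to 0.057 (rrf-2) and -0.017 to 0.25 (mut-2), in mRNA over -0.17 to 0.066 (rrf-1), -0.32 to 0.037 (mut-7) and -0.14 to 0.072 (mut-15), and on average over -0.12 to 0.56 (rrf-1) and -0.41 to 0.24 (mut-15).

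No label ties libraries of the same replicate number together, and the correlation of their deviations was 0.515, 0.0781, -0.125 and -0.214 in lines 1 to 4, 0.404 in rde-11 and 0.229 in mRNA. With the replicate number as a block, 3 genes fell in line 1 (1 without it), 6 in line 2 (6), 5 in line 3 (6), 7 in line 4 (7), 1 in mRNA (1) and 7 on average (7). The block gave 7 rises in rde-11 (5), 0 in line 3 (1) and 1 on average (0, now rrf-2), and 2 genes differing among the lines (0, now mut-14 and mut-16).

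Over all settings tried, results for single genes kept direction and side of the threshold in 931 cases, lost a call in 258, gained one in 66 and changed sign in 98. Depth limits mut-2 most, at 11.7 to 32.5 RPM in mixed populations, and rrf-2 in mRNA.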

Other observations

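The gene F26A3.4, the nearest neighbour of ego-1 on the side away from rrf-1, stood higher in sRNAs in all 4 lines. It was chosen after its values were seen. Its sRNAs stood at 422 and 423 RPM in line 1, 356 and 284 RPM in line 2, 358 and 346 RPM in line 3 and 392 and 278 RPM in line 4, against 83.1 and 86.4 RPM in N2. All 8 line libraries lay above both N2 libraries, as they did for 5.85% of all features. The log2 change was 2.31, 1.90, 2.04 and 1.95 in lines 1 to 4, with adjusted p from limma of 3.06e-09, 4.28e-13, 1.26e-10 and 2.80e-11, on the RPM scale. After TMM scaling it was 2.63, 2.47, 2.64 and 2.71, with adjusted p of 0.00115, 0.000658, 0.000489 and 0.000971. Of all features 3.03%, 5.83%, 5.83% and 5.4% rose in lines 1 to 4 on the RPM scale, and 4.91%, 14.8%, 16.8% and 16.9% after TMM scaling. In rde-11 young mothers the sRNAs of F26A3.4 stood at 58.6 and 61.9 RPM, against 58.5 and 63.9 RPM in N2 (log2 change -0.021, adjusted p = 0.926). Its mRNA in line 1 young mothers stood at 86.4 and 43.4 scaled units, against 80.3 and 69.9 in N2 (log2 change -0.29, adjusted p = 0.400).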
